A study of Avena sativa with 6 samples.

Results

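The carotenoid and xanthophyll synthesis enzymes of the oat grain were followed here, from phytoene synthase to violaxanthin de-epoxidase. They were taken as every gene whose deposited KEGG text holds the ortholog number of 1 of 12 enzymes of the pathway. This gave 57 of the 136488 genes in the table. Names below come from that text, and the gene IDs carry a short tag such as 5A, 6C or Un after the common prefix. RNA had been measured in peeled grains of BY9 (labelled Baiyan No.9), a high-oil oat cultivar. In the ear-shaded group the ears had been shaded for 4 days after flowering, in the unshaded group they had not, and each group had 3 libraries. Both groups share the cultivar and the tissue, and the labels name no other treatment. They do not say whether libraries came from separate or pooled plants, so p-values reflect only how much these 6 libraries vary, and that variation may be technical.

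Carotenoids are plastid pigments built from geranylgeranyl diphosphate, the same isoprenoid that feeds the tail of chlorophyll. Phytoene synthase makes colourless phytoene, desaturases and isomerases turn it into red lycopene, and lycopene cyclases split the route into an alpha branch that ends in lutein and a beta branch that leads to zeaxanthin and violaxanthin. In green tissue these pigments sit in the photosystems, where they gather light and quench excess energy, and violaxanthin and its relative neoxanthin are also the precursors of the hormone abscisic acid.

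Levels are in FPKM (fragments per kilobase, scaled to library size), so those of different genes can be compared per length. Sequencing depth per library is unknown. Library totals ran from 493004.4 to 561771.7 FPKM. Ear-shaded replicates 1 and 2 lay closer to each other (r = 0.9891 over genes) than the other within-group pairs did (0.9495 to 0.965), and with these averaged 20 carotenoid genes passed in place of 27. Storage protein genes marked the tissue as grain in every library: 174 genes with gliadin, seed storage or globulin text, 12 of which carry immunoglobulin text, summed to between 21953.4 and 42234.5 FPKM in unshaded and between 6620.2 and 10562.2 FPKM in ear-shaded libraries. Of the 127 of them tested, 98 were lower and 5 higher, beside 21.5% and 42.4% of all tested genes. Oleosins, the coat proteins of oil bodies in embryo and aleurone, summed to between 18.2 and 32.0 FPKM in unshaded and between 7.05 and 7.61 FPKM in ear-shaded libraries. Of their tested genes 5 of 5 were lower, beside 21.5% of all tested genes. Genes of the light-harvesting antenna, markers of green tissue, summed to between 15.7 and 23.7 FPKM in unshaded and between 586 and 732 FPKM in ear-shaded libraries. Of its 93 genes, 42 were tested with limma and 41 were higher, beside 42.4% of all tested genes. The filter for testing was a mean of 1 FPKM over the 6 libraries. Of the 42, 40 met it only through the ear-shaded libraries, so their ear-shaded means had to be higher. In this list 28 genes were at 0 in all 3 unshaded libraries against 3 in all 3 ear-shaded ones. The part of these tissue markers in the changes of carotenoid genes was not tested. In a whole grain, more cells of a type and more RNA per cell cannot be told apart.

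Grains of shaded ears held more RNA for the entry of the pathway, for the beta-cyclase and for the xanthophyll cycle, while the desaturase sums were higher by less and the epsilon-cyclase sums overlapped. Summed over the KEGG-annotated genes of a step, phytoene synthase was 8.17-fold higher, violaxanthin de-epoxidase 5.21-fold, zeaxanthin epoxidase 4.45-fold and lycopene beta-cyclase 4.40-fold. Phytoene desaturase (1.37-fold) and zeta-carotene desaturase (1.32-fold) differed least among the steps that were higher in sum, apart from beta-carotene 3-hydroxylase (1.05-fold), within which some gene copies fell and others rose. Only the epsilon-cyclase step (0.871-fold) and the zeta-carotene isomerase step as annotated (0.732-fold) were lower in sum. With median-of-ratios scaling the phytoene synthase sum was 6.18-fold higher, violaxanthin de-epoxidase 3.93-fold and zeaxanthin epoxidase 3.41-fold. With quantile normalization these were 6.10-fold, 3.71-fold and 2.94-fold. These scalings put phytoene desaturase at 1.04-fold and 1.13-fold, and epsilon-cyclase at 0.670-fold and 0.674-fold. Equal library sums gave 8.99-fold for phytoene synthase and 5.73-fold for violaxanthin de-epoxidase. With median-of-ratios scaling the zeta-carotene desaturase sum was 0.997-fold and the beta-carotene 3-hydroxylase sum 0.797-fold, the latter also with quantile normalization.

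**Figure D1:**
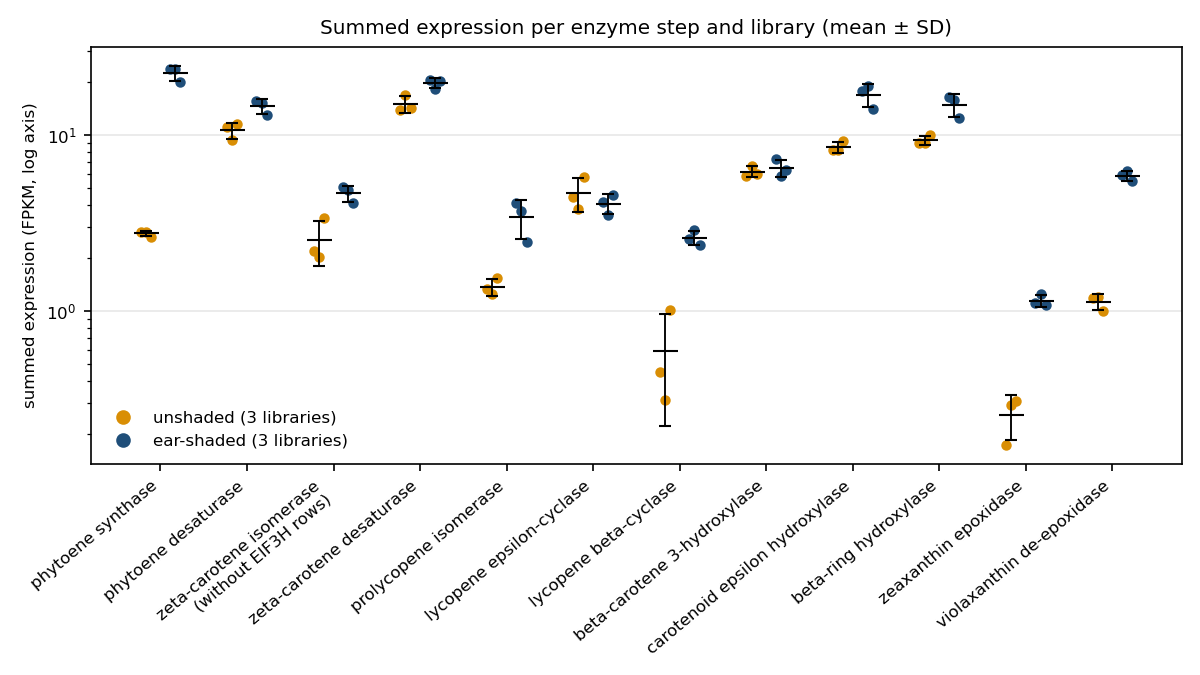
Summed expression of the genes of each enzyme step in every library (FPKM, log axis), in pathway order, without the 4 zeta-carotene isomerase genes whose text also names EIF3H. Points are libraries, and bars show the mean ± SD of 3 libraries. Phytoene synthase goes from between 2.64 and 2.82 to between 20.1 and 23.8 FPKM, while the epsilon-cyclase and beta-carotene 3-hydroxylase groups overlap.

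Most of these genes were expressed at a low level. Only 24 of the 57 had a mean of 1 FPKM or more in unshaded grains, and 41 had one in ear-shaded grains. Genes were tested with limma where their mean over the 6 libraries was at least 1 FPKM, which 36 of the 57 reached. Of these, 22 rose, 5 fell and 9 missed an adjusted p of 0.05. Over all 58283 tested genes 63.9% passed, 42.4% higher and 21.5% lower. Among the 36, 12 reached the filter only through the ear-shaded libraries, and all 12 were called higher. A gene admitted in that way has to have a higher ear-shaded mean, so the count of 22 is a description. The other 24 tested genes had 10 higher and 5 lower, near the shares of all tested genes. Of these 5, 3 carry EIF3H text. Among the 24, AVESA.00010b.r2.4AG0627620 (called lower) and AVESA.00010b.r2.1DG0124870 (not called) reached the filter only through the unshaded libraries. So these counts are a description too. With no filter on low values, 34 of the 57 were higher and 4 lower, beside 28.4% and 12.8% of all 136488 genes. The 3 ear-shaded libraries lay wholly above the 3 unshaded ones in 40 of the 57 and wholly below in 6, against 35.4% and 16.7% of all genes. Of all 136488 genes 78205 were under the filter, against 21 of the 57. Shares of all genes thus come from a set with more low values.

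Scaling between libraries shifted large folds too, and it decided whether some small changes passed. Over all tested genes the median change as deposited was 0.26 on the log2(FPKM + 1) scale, with median-of-ratios scaling it was -0.02, with quantile normalization 0.05 and with equal library sums 0.35. The median over the 36 tested carotenoid genes was 0.50 as deposited, 0.24 above that of all genes. It is a description too, since 12 of the 36 were admitted only through the ear-shaded libraries, against 9034 of all 58283. With median-of-ratios scaling 12 of the 36 were higher and 8 lower, beside 28.0% and 31.1% of all tested genes. Of the 22 genes called higher, 12 were called higher with each of the 3 other scalings, and of the 5 called lower 3 were called lower with each. In the authors' deposited table, 20 of the 57 carry the mark up and 2 the mark down, beside 13.4% and 12.9% of all genes. The marked genes there have an absolute log2 fold change above 1 and an adjusted p under 0.05, and its log2 fold changes lie below the log2 ratio of mean FPKM by a median of 0.382. The shares marked among all genes again come from a set with more low values.

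**Figure D2:**
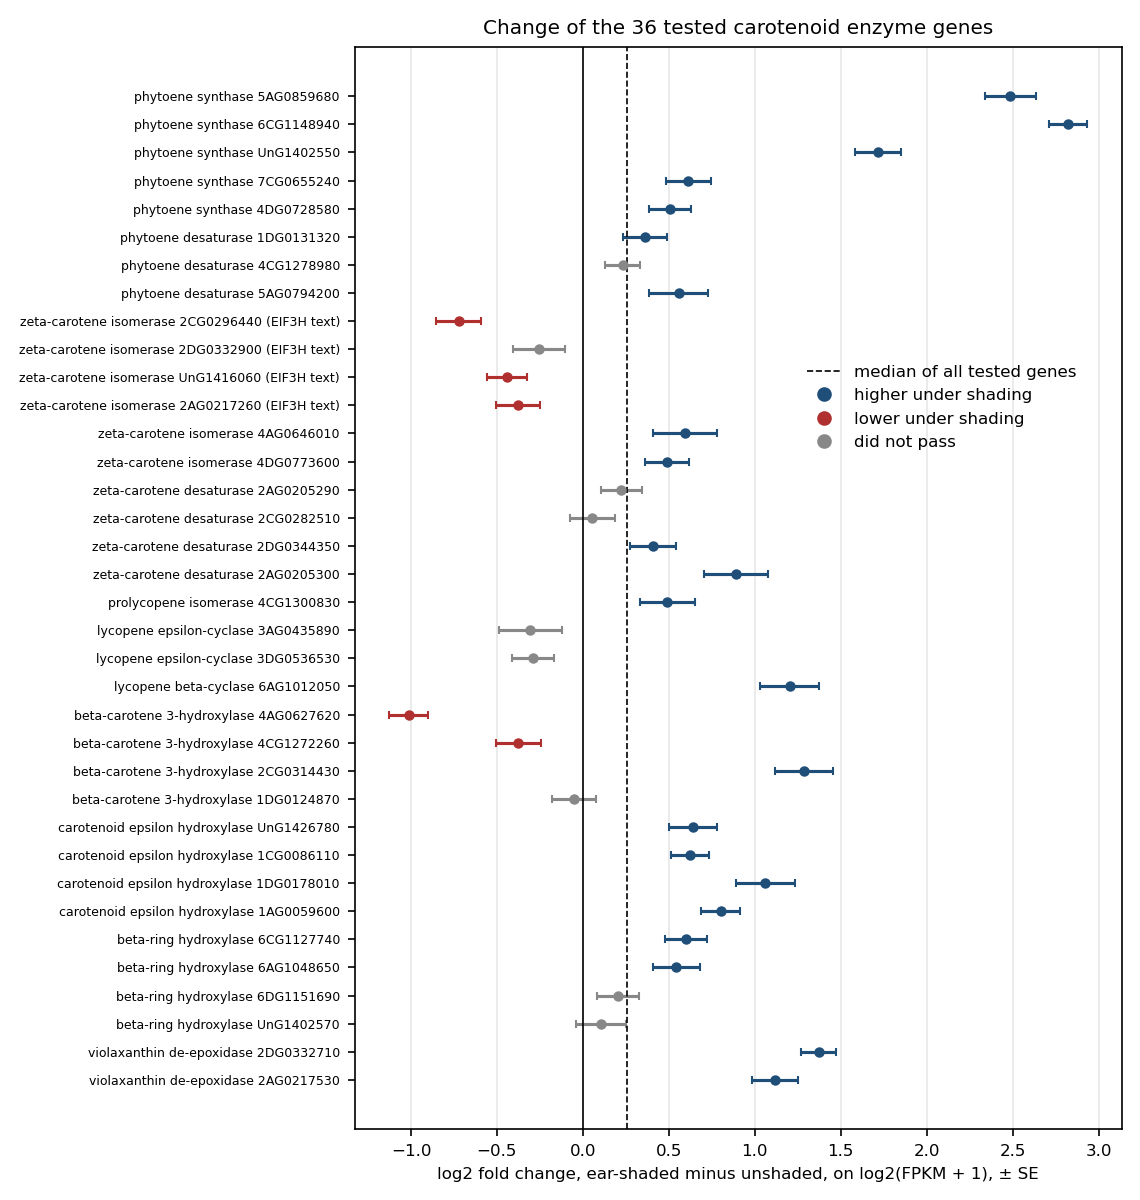
Log2 fold change of the 36 tested genes (ear-shaded minus unshaded, on the log2(FPKM + 1) scale) with its standard error from limma, grouped by step. The dashed line is the median of all tested genes at 0.26. The 3 points farthest to the right are phytoene synthase genes, and the lowest is a beta-carotene 3-hydroxylase gene.

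Phytoene synthase joins molecules of geranylgeranyl diphosphate to phytoene, the committed step that is widely held to set the flow into carotenoids. Its 10 genes summed to 2.82, 2.82 and 2.64 FPKM in the unshaded and to 23.8, 23.8 and 20.1 FPKM in the ear-shaded libraries. They made up 4.39% ± 0.370 (SD, n = 3) of the summed FPKM of the pathway in unshaded and 19.3% ± 0.453 in ear-shaded grains, with the 4 zeta-carotene isomerase genes whose text also names EIF3H left out of that sum. All 5 tested phytoene synthase genes rose, and each of these 5 reached the filter only through the ear-shaded libraries.

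AVESA.00010b.r2.5AG0859680 was at 0.388, 0.449 and 0.429 FPKM in the unshaded libraries and at 7.91, 7.82 and 5.45 FPKM in the ear-shaded ones. The lowest shaded library, replicate 3, was still far above every unshaded one, and the gene rose 16.7-fold (log2 fold change 2.49, SE 0.15, limma adjusted p = 2.5e-05). AVESA.00010b.r2.6CG1148940 was listed at 0, 0.0854 and 0 FPKM in the unshaded and at 6.60, 6.36 and 5.89 FPKM in the ear-shaded libraries. It rose by 2.82 on the log2(FPKM + 1) scale (SE 0.11, limma adjusted p = 5.93e-06), and no fold is given since its unshaded mean rests on replicate 2. These 2 copies were the most abundant in shaded grains, where their order differed between libraries, and their joint share of the step went from 16.3% ± 2.61 to 59.1% ± 2.29.

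The third copy, AVESA.00010b.r2.UnG1402550, was at 0.0326, 0.140 and 0.218 FPKM and at 2.83, 3.09 and 2.27 FPKM. It rose 21.0-fold, or 31.6-fold without unshaded replicate 3 (log2 fold change 1.72, SE 0.13, limma adjusted p = 5.49e-05). The copies that were highest in unshaded grains changed less. AVESA.00010b.r2.7CG0655240 rose 2.18-fold, from 0.815 ± 0.157 to 1.78 ± 0.281 FPKM. AVESA.00010b.r2.4DG0728580 rose 1.94-fold, from 0.796 ± 0.180 to 1.54 ± 0.113 FPKM, a call lost under median-of-ratios scaling and quantile normalization. In unshaded grains these 2 overlapped each other, and in shaded grains they overlapped too.

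The remaining 5 phytoene synthase genes stayed under the filter. AVESA.00010b.r2.4AG0583960 (0.406 ± 0.0499 and 1.58 ± 0.0903 FPKM), with a mean of 0.991 FPKM, missed it narrowly. AVESA.00010b.r2.5DG0950100 was at 0, 0.123 and 0.112 FPKM and at 0.944, 0.869 and 1.04 FPKM. AVESA.00010b.r2.7DG1400810 was listed at 0 in the 3 unshaded libraries and at 0.494, 0.554 and 0.624 FPKM in the ear-shaded ones. The groups of all 3 were wholly separated. The other two, AVESA.00010b.r2.5CG0874950 and AVESA.00010b.r2.5CG0874940, are short loci of 654 and 546 bases that stayed at or under 0.161 FPKM. Across the pathway the 7 shortest loci, from 378 to 657 bases, were all under the filter.

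**Figure D3:**
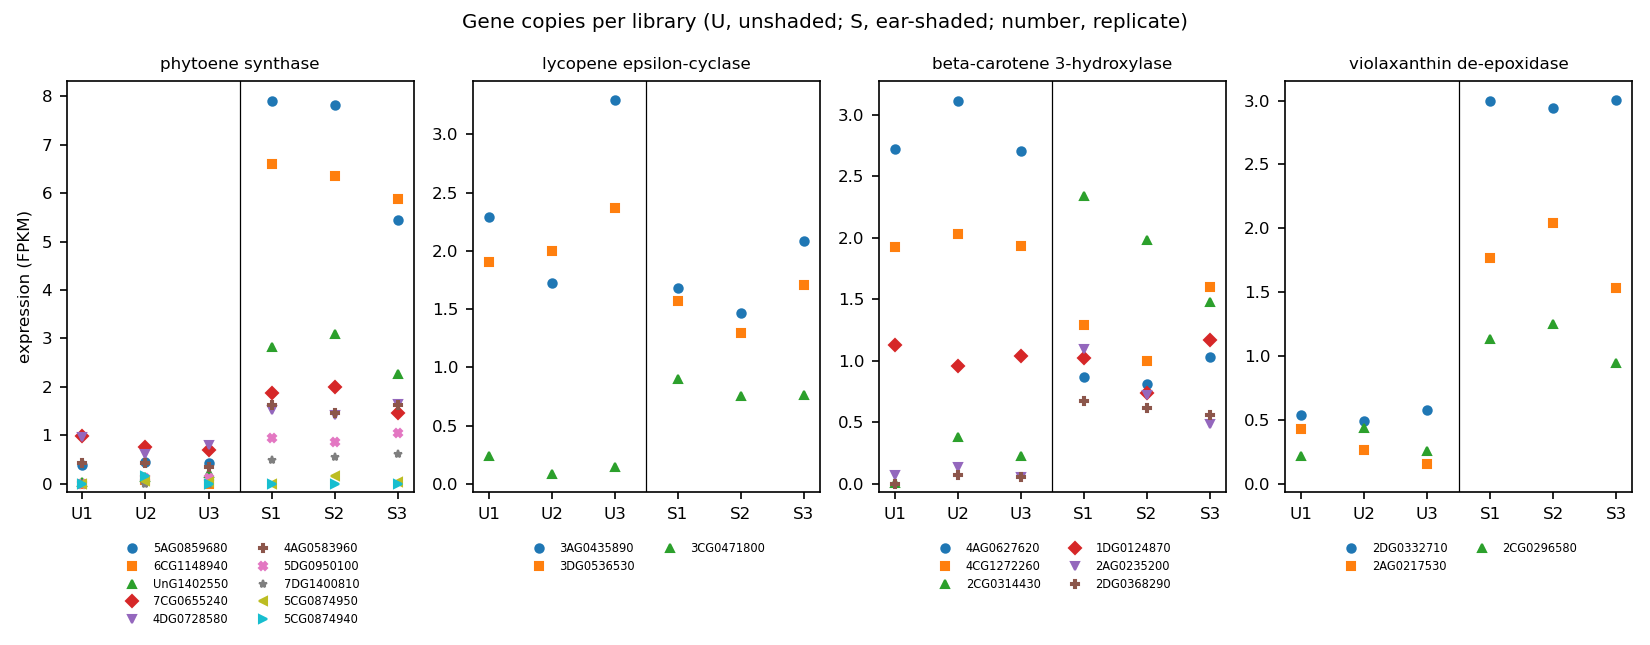
Expression of every gene copy of phytoene synthase, lycopene epsilon-cyclase, beta-carotene 3-hydroxylase and violaxanthin de-epoxidase in each library (FPKM, linear axes that differ between panels). Each symbol is a gene, named by the end of its ID. Phytoene synthase genes lie at or under 0.993 FPKM in unshaded libraries and reach 7.91 FPKM in shaded ones, and the 4A copy of beta-carotene 3-hydroxylase leads in each unshaded library, the 2C copy in ear-shaded replicates 1 and 2 and the 4C copy in ear-shaded replicate 3.

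Phytoene desaturase puts the first double bonds into phytoene. Its 3 genes summed to 11.1, 9.39 and 11.5 FPKM in unshaded and to 15.5, 15.2 and 13.0 FPKM in ear-shaded libraries, without overlap. AVESA.00010b.r2.1DG0131320 was at 4.91, 4.06 and 5.11 FPKM and at 6.90, 6.45 and 5.60 FPKM, 1.34-fold higher (limma adjusted p = 0.0375). AVESA.00010b.r2.5AG0794200 was at 2.20, 1.55 and 2.46 FPKM and at 4.04, 3.85 and 2.69 FPKM, 1.70-fold higher (limma adjusted p = 0.0217). Both calls were fragile. They ended with median-of-ratios scaling, with quantile normalization and with ear-shaded replicates 1 and 2 averaged, as well as in 4 and 3 of the 6 fits that left out a library. AVESA.00010b.r2.4CG1278980 (3.88 ± 0.0885 and 4.73 ± 0.164 FPKM) did not pass, and its log2 fold change of 0.23 was -0.088 with median-of-ratios scaling. The 3 copies kept the order 1D, 4C, 5A in every library.

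Zeta-carotene isomerase carries the light-independent cis-to-trans step between the desaturases. Its 7 annotated genes fall into 2 kinds. In 4 of them the KEGG text joins the isomerase with EIF3H, a subunit of a translation initiation factor, and the COG text names only the factor. These lay between 12.2 and 44.1 FPKM, above every other gene of the pathway, whose highest single value was 8.82 FPKM, and they held 62.4% ± 2.95 of the summed FPKM of all 57 genes in unshaded and 38.8% ± 3.67 in ear-shaded grains. The data do not tell which product those fragments belong to. The 4 genes were lower in mean under shading. AVESA.00010b.r2.2CG0296440 fell from 40.8 ± 3.37 to 24.3 ± 1.84 FPKM (log2 fold change -0.72, SE 0.13, limma adjusted p = 0.00199). AVESA.00010b.r2.UnG1416060 fell from 20.5 ± 1.63 to 14.9 ± 0.362 FPKM (log2 fold change -0.44, limma adjusted p = 0.0112). Without ear-shaded replicate 1 its log2 fold change was -0.43 and the limma adjusted p 0.0514. AVESA.00010b.r2.2AG0217260 (18.0 ± 0.792 and 13.7 ± 1.78 FPKM) passed as lower (limma adjusted p = 0.0321), a call that ended in 7 of 16 alternatives, among them the average of ear-shaded replicates 1 and 2. AVESA.00010b.r2.2DG0332900 (25.4 ± 4.09 and 21.0 ± 1.82 FPKM) did not pass.

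The other 3 isomerase genes carry the isomerase text alone with the domain name NnrU, and were higher under shading. They summed to 2.20, 2.02 and 3.35 FPKM in unshaded and to 5.04, 4.84 and 4.10 FPKM in ear-shaded libraries, 1.84-fold higher. AVESA.00010b.r2.4AG0646010 was at 0.944, 0.574 and 1.57 FPKM and at 2.27, 1.99 and 1.76 FPKM (limma adjusted p = 0.0237), and AVESA.00010b.r2.4DG0773600 at 0.577, 0.710 and 0.902 FPKM and at 1.53, 1.56 and 1.20 FPKM (limma adjusted p = 0.0109). Both rose, and both calls ended with median-of-ratios scaling and with quantile normalization, the first also with ear-shaded replicates 1 and 2 averaged and in 4 of 6 fits that left out a library. The second had reached the filter only through the ear-shaded libraries, so its direction was fixed by the filter. AVESA.00010b.r2.4DG0785380 (0.767 ± 0.102 and 1.23 ± 0.0775 FPKM) lay just under the filter at a mean of 0.996 FPKM. Without the 4 genes of joint EIF3H text, the pathway's remaining 53 genes summed to 63.0 ± 3.15 FPKM without and 117 ± 9.58 FPKM with shading, 1.85-fold higher. That fold was 1.41 with median-of-ratios scaling, 1.47 with quantile normalization and 2.04 with equal library sums. With all 57 the sums were 168 ± 4.62 and 191 ± 4.39 FPKM, 1.14-fold higher, and 0.862-fold with median-of-ratios scaling and 0.997-fold with quantile normalization.

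Zeta-carotene desaturase completes the conjugated chain and was among the most abundant steps in unshaded grains. AVESA.00010b.r2.2AG0205290 was at 6.90, 8.20 and 6.49 FPKM and at 8.56, 8.21 and 8.82 FPKM, the highest mean of the 53 genes without EIF3H text, and did not pass. Neither did AVESA.00010b.r2.2CG0282510, at 4.58 ± 0.678 and 4.78 ± 0.461 FPKM, whose sign turned with median-of-ratios scaling and quantile normalization, as did that of the 2A gene with the former. AVESA.00010b.r2.2DG0344350 rose 1.46-fold, from 2.38 ± 0.378 to 3.46 ± 0.416 FPKM (limma adjusted p = 0.0287), a call that ended with both of those scalings, with ear-shaded replicates 1 and 2 averaged and in 3 of 6 fits that left out a library. The shorter neighbouring entry AVESA.00010b.r2.2AG0205300 was at 0.471, 0.525 and 0.436 FPKM and at 1.95, 1.06 and 2.38 FPKM. It rose 3.76-fold (log2 fold change 0.89, SE 0.18, limma adjusted p = 0.00373) and kept its call in every alternative that tested it. It had reached the filter only through the ear-shaded libraries, so its direction was fixed by the filter. AVESA.00010b.r2.UnG1450840 (0.327 ± 0.245 and 1.10 ± 0.482 FPKM) was under the filter.

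Prolycopene isomerase, which makes all-trans lycopene, was one of the least abundant steps, with sums of 1.37 ± 0.151 and 3.42 ± 0.861 FPKM. AVESA.00010b.r2.4CG1300830 was the only tested gene, at 0.772, 0.587 and 0.781 FPKM and at 1.83, 1.53 and 0.937 FPKM. It rose 2.01-fold (limma adjusted p = 0.0279), a call lost in 8 of 15 alternatives, including averaged ear-shaded replicates 1 and 2. It had reached the filter only through the ear-shaded libraries, so its direction was fixed by the filter. Ear-shaded replicate 3 lay closest to the unshaded libraries. AVESA.00010b.r2.4AG0577500 (0.300 ± 0.0762 and 1.23 ± 0.404 FPKM) had separate groups, AVESA.00010b.r2.4DG0722500 (0.360 ± 0.151 and 0.759 ± 0.451 FPKM) had overlapping ones, and AVESA.00010b.r2.4DG0722510 stayed at or under 0.00243 FPKM.

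At the branch point the annotated beta-cyclase gene rose, and no tested epsilon-cyclase gene passed. Lycopene epsilon-cyclase, which puts the epsilon ring on the precursor of lutein, summed to 4.43, 3.81 and 5.80 FPKM in unshaded and to 4.15, 3.52 and 4.56 FPKM in ear-shaded libraries. Lycopene beta-cyclase, which makes the beta rings of both branches, had 1 annotated gene, AVESA.00010b.r2.6AG1012050, whose KEGG text holds a second ortholog number, that of capsanthin/capsorubin synthase (CCS1). It reached the filter only through the ear-shaded libraries. It was at 0.452, 0.313 and 1.02 FPKM and at 2.57, 2.88 and 2.38 FPKM, with unshaded replicate 3 the highest of its group and still well below every shaded library. It rose 4.40-fold, or 6.83-fold without unshaded replicate 3 (log2 fold change 1.20, SE 0.17, limma adjusted p = 0.000653), and passed in every alternative that tested it. The ratio of the epsilon-cyclase sum to the beta-cyclase gene was 9.80, 12.2 and 5.70 in the unshaded and 1.61, 1.22 and 1.91 in the ear-shaded libraries, without overlap. A factor that scales a whole library leaves this ratio as it is. A single beta-cyclase gene in a hexaploid may not be the whole step, since other genes with lycopene cyclase text carry no KEGG text.

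The epsilon-cyclase copies did not move together. AVESA.00010b.r2.3AG0435890 was at 2.29, 1.73 and 3.29 FPKM and at 1.68, 1.47 and 2.09 FPKM, with overlap, and AVESA.00010b.r2.3DG0536530 at 1.90, 2.00 and 2.37 FPKM and at 1.57, 1.30 and 1.71 FPKM, without overlap. Neither passed (limma adjusted p = 0.175 and 0.0672). Under median-of-ratios scaling both fell (log2 fold changes -0.56 and -0.54), as they did under quantile normalization (-0.55 and -0.53). AVESA.00010b.r2.3CG0471800, under the filter, was at 0.235, 0.0860 and 0.141 FPKM and at 0.899, 0.756 and 0.763 FPKM, 5.23-fold higher. Its share of the step was 5.31%, 2.26% and 2.43% in the unshaded and 21.7%, 21.5% and 16.7% in the ear-shaded libraries.

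**Figure D4:**
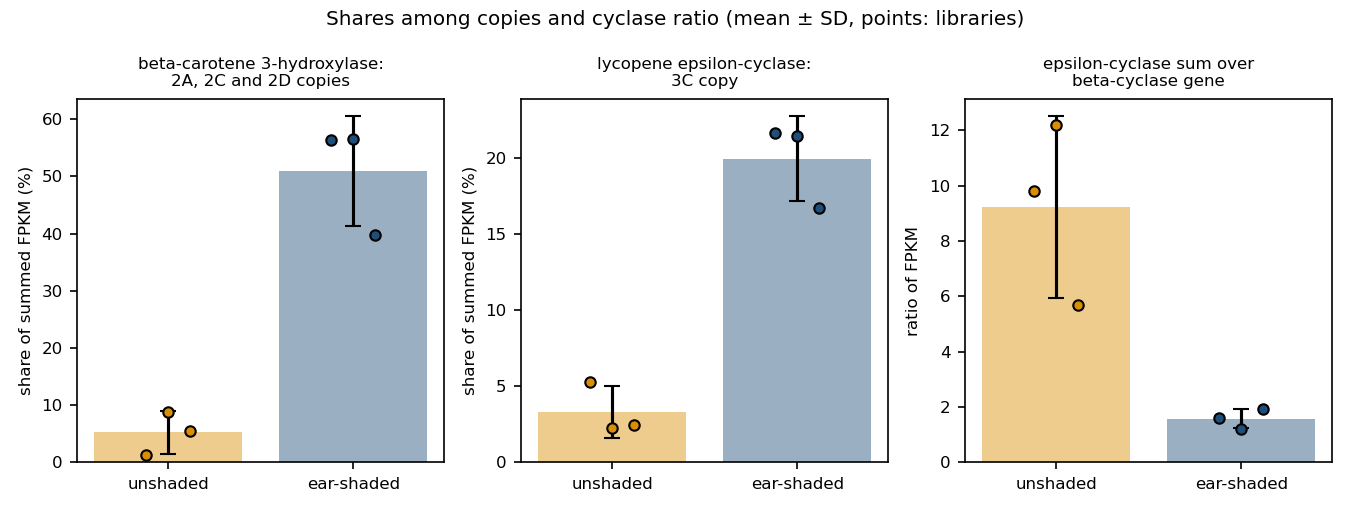
Shares among gene copies within a step and the ratio of epsilon-cyclase to beta-cyclase expression, with bars for the mean of 3 libraries ± SD and points for libraries. The 2A, 2C and 2D copies of beta-carotene 3-hydroxylase go from between 1.31% and 8.87% to between 39.8% and 56.6% of that step, and no panel shows overlap between groups.

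Beta-carotene 3-hydroxylase, the non-haem enzyme that turns beta-carotene into zeaxanthin, showed almost the same sum in both groups (6.19 ± 0.453 and 6.50 ± 0.729 FPKM), yet its copies differed in direction. The leading copy of unshaded grains, AVESA.00010b.r2.4AG0627620, was at 2.72, 3.12 and 2.70 FPKM and at 0.869, 0.816 and 1.03 FPKM. It fell 3.14-fold (log2 fold change -1.01, SE 0.11, limma adjusted p = 0.000202) and passed in every alternative that tested it. Its ear-shaded mean was 0.906 FPKM, so it reached the filter only through the unshaded libraries. A lower ear-shaded mean was thus fixed by the filter. AVESA.00010b.r2.4CG1272260 (1.96 ± 0.0586 and 1.30 ± 0.303 FPKM) passed as lower (limma adjusted p = 0.034), a call lost in 9 of 15 alternatives, averaged ear-shaded replicates 1 and 2 included. AVESA.00010b.r2.1DG0124870 (1.04 ± 0.0849 and 0.978 ± 0.219 FPKM) did not pass.

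The copies tagged 2A, 2C and 2D were higher under shading. AVESA.00010b.r2.2CG0314430 was at 0.00825, 0.383 and 0.224 FPKM and at 2.34, 1.98 and 1.48 FPKM. It rose 9.43-fold, or 16.6-fold without unshaded replicate 2 (log2 fold change 1.28, SE 0.17, limma adjusted p = 0.000406), and passed in every alternative that tested it. It had reached the filter only through the ear-shaded libraries, so its direction was fixed by the filter. AVESA.00010b.r2.2AG0235200 was at 0.0684, 0.136 and 0.0524 FPKM and at 1.10, 0.724 and 0.484 FPKM, and AVESA.00010b.r2.2DG0368290 at 0, 0.0758 and 0.0563 FPKM and at 0.675, 0.615 and 0.563 FPKM. These 2 were under the filter, and the groups of all 3 were separate. Together the 3 held 1.31%, 8.87% and 5.54% of the step in the unshaded and 56.4%, 56.6% and 39.8% in the ear-shaded libraries. In sum they went from 0.335 ± 0.259 to 3.32 ± 0.797 FPKM, while the other 3 went from 5.85 ± 0.227 to 3.18 ± 0.628 FPKM.

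The cytochrome P450 hydroxylases, which finish lutein, were higher in sum, and no tested gene of theirs fell. The carotenoid epsilon hydroxylase (CYP97C type), which acts on the epsilon ring, summed to 8.54 ± 0.589 and 16.9 ± 2.55 FPKM, 1.98-fold higher. All 4 tested genes rose, and all of these had an unshaded mean above the filter. AVESA.00010b.r2.1DG0178010 was at 0.979, 0.967 and 1.64 FPKM and at 3.79, 4.14 and 2.78 FPKM, 2.99-fold higher (log2 fold change 1.06, SE 0.17, limma adjusted p = 0.00113). AVESA.00010b.r2.1AG0059600 rose 2.39-fold from 1.16 ± 0.0608 FPKM, and AVESA.00010b.r2.1CG0086110 rose 1.80-fold from 2.07 ± 0.101 FPKM. These 3 kept their calls in every alternative that tested them. AVESA.00010b.r2.UnG1426780, the most abundant, rose from 3.23 ± 0.183 to 5.64 ± 0.998 FPKM, a call lost under median-of-ratios scaling. AVESA.00010b.r2.UnG1438120 (0.864 ± 0.0885 and 1.13 ± 0.310 FPKM) and the short AVESA.00010b.r2.2DG0374920 (0.0223 ± 0.0193 and 0.0841 ± 0.0364 FPKM) were under the filter.

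The beta-ring hydroxylase (CYP97A type), its partner on the beta ring of alpha-carotene, summed to 9.35 ± 0.574 and 14.9 ± 2.15 FPKM, 1.59-fold higher. AVESA.00010b.r2.6CG1127740 was at 2.81, 3.16 and 3.53 FPKM and at 5.72, 5.52 and 4.70 FPKM (limma adjusted p = 0.00356). AVESA.00010b.r2.6AG1048650 was at 1.97, 1.85 and 2.19 FPKM and at 3.98, 3.53 and 2.72 FPKM (limma adjusted p = 0.0096). Both rose, and both calls ended with median-of-ratios scaling, that of the 6A gene also with quantile normalization. AVESA.00010b.r2.6DG1151690 (2.32 ± 0.372 and 2.82 ± 0.167 FPKM) and AVESA.00010b.r2.UnG1402570 (1.27 ± 0.167 and 1.46 ± 0.392 FPKM) did not pass and overlapped between groups. The short AVESA.00010b.r2.UnG1465840 (0.402 ± 0.326 and 1.06 ± 0.578 FPKM) and AVESA.00010b.r2.6DG1151680 (0.181 ± 0.0810 and 0.805 ± 0.287 FPKM) were under the filter.

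The xanthophyll cycle consists of zeaxanthin epoxidase, which makes violaxanthin and so also the precursor of abscisic acid, and violaxanthin de-epoxidase, which turns violaxanthin back into zeaxanthin in strong light. Summed over the KEGG-annotated genes, violaxanthin de-epoxidase was the higher of the 2 in every library, and both were higher under shading. AVESA.00010b.r2.2DG0332710 was at 0.541, 0.495 and 0.582 FPKM and at 3.00, 2.94 and 3.01 FPKM, with a narrow spread in both groups. It rose 5.53-fold (log2 fold change 1.37, SE 0.10, limma adjusted p = 5.11e-05). AVESA.00010b.r2.2AG0217530 was at 0.431, 0.266 and 0.158 FPKM and at 1.77, 2.04 and 1.53 FPKM, and rose 6.25-fold (log2 fold change 1.12, SE 0.13, limma adjusted p = 0.000274). Both passed in every alternative that tested them, and both had reached the filter only through the ear-shaded libraries. AVESA.00010b.r2.2CG0296580, under the filter, was at 0.217, 0.436 and 0.256 FPKM and at 1.13, 1.25 and 0.944 FPKM. In shaded grains the copies kept the order 2D, 2A, 2C in all 3 libraries, and in unshaded grains 2A and 2C overlapped.

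Among the steps as annotated by KEGG text, zeaxanthin epoxidase was the least abundant, and none of its 3 genes reached the filter. They summed to 0.173, 0.292 and 0.308 FPKM in unshaded and to 1.12, 1.25 and 1.07 FPKM in ear-shaded libraries. AVESA.00010b.r2.2AG0222650 went from 0.121 ± 0.0479 to 0.404 ± 0.103 FPKM, AVESA.00010b.r2.2DG0326930 from 0.0712 ± 0.0275 to 0.387 ± 0.0728 FPKM and AVESA.00010b.r2.2CG0303360 from 0.0650 ± 0.0142 to 0.355 ± 0.107 FPKM. Each gene had wholly separate groups and passed as higher in the fit with no filter (limma adjusted p = 0.0127, 0.00284 and 0.0067). In the authors' deposited table all 3 are marked up, with adjusted p of 0.00775, 1.92e-05 and 0.00928. Genes with zeaxanthin epoxidase COG text and no KEGG text are outside these sums, which may not hold the whole step. AVESA.00010b.r2.2AG0247790 went from 0.392 ± 0.0912 to 0.708 ± 0.0919 FPKM and AVESA.00010b.r2.4CG1283240 from 0.438 ± 0.0546 to 0.862 ± 0.112 FPKM. AVESA.00010b.r2.7DG1356950 (0.492 ± 0.177 and 0.748 ± 0.0537 FPKM) overlapped between groups, and AVESA.00010b.r2.1DG0128580 had means of 0.0766 and 0 FPKM. The unshaded means of 2AG0247790, 4CG1283240 and 7DG1356950 each exceeded that of the annotated sum, 0.258 FPKM. Their folds were 1.81, 1.97 and 1.52, against 4.45 for that sum. The low rank of this step, its fold and its order with the de-epoxidase therefore hold for the KEGG-annotated genes only.

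Among the 22 genes called higher, ear-shaded replicate 3 was the lowest shaded library in 18 (81.8%) and unshaded replicate 3 the highest unshaded one in 14 (63.6%). Over all 24724 genes called higher these shares were 68.9% and 64.2%.

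Upstream of phytoene, the genes of the plastid isoprenoid supply were higher at nearly every step. Of 39 genes of the methylerythritol phosphate route, isopentenyl diphosphate isomerase and geranylgeranyl diphosphate synthase, 30 were tested, 23 were higher and 2 lower, beside 42.4% and 21.5% of all tested genes. Their median log2 fold change was 0.95, 0.70 above that of all tested genes, and 14 of the 30 reached the filter only through the ear-shaded libraries. Deoxyxylulose phosphate synthase, the entry of the route, summed to 0.193, 0.419 and 0.606 FPKM in unshaded and to 9.84, 9.44 and 9.42 FPKM in ear-shaded libraries, 23.6-fold higher. The gene of highest mean over both groups there, AVESA.00010b.r2.1DG0172680, rose from 0.104 ± 0.0403 to 3.39 ± 0.378 FPKM (log2 fold change 1.99, SE 0.12, limma adjusted p = 2.34e-05). It too was admitted only through the ear-shaded libraries.

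Later steps of the route were higher by less. The reductoisomerase gene AVESA.00010b.r2.1CG0115510 rose 3.43-fold, ispE (AVESA.00010b.r2.3CG0507890) 1.72-fold, ispF (AVESA.00010b.r2.6AG1031110) 2.81-fold and ispG (AVESA.00010b.r2.6AG1036700) 2.76-fold. For ispE the call ended with median-of-ratios scaling and with quantile normalization. The named reductoisomerase and ispG genes had reached the filter only through the ear-shaded libraries. The last enzyme, ispH, was at 2.01, 2.10 and 2.71 FPKM and at 12.1, 13.2 and 10.3 FPKM in AVESA.00010b.r2.4DG0748850, which rose 5.22-fold. The ispD gene AVESA.00010b.r2.3CG0515240 (0.854 ± 0.167 and 1.23 ± 0.231 FPKM) did not pass.

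Isopentenyl diphosphate isomerase, which serves isoprenoids in several compartments, stood apart from the rest of the supply, with 0 of 6 genes higher, 2 lower and sums of 36.3 ± 6.22 and 29.9 ± 3.98 FPKM. The gene of highest mean over both groups, AVESA.00010b.r2.2DG0351510 (9.64 ± 0.386 and 8.95 ± 0.432 FPKM), did not pass. AVESA.00010b.r2.2CG0274220, named after its values were seen, had the highest unshaded mean and fell from 10.7 ± 3.32 to 4.60 ± 0.999 FPKM (log2 fold change -1.04, SE 0.22, limma adjusted p = 0.00415). Geranylgeranyl diphosphate synthase, which delivers the substrate of phytoene synthase, summed to 11.4, 14.2 and 12.9 FPKM and to 49.9, 48.8 and 42.5 FPKM, 3.67-fold higher, and 5 of 5 tested genes rose. AVESA.00010b.r2.6CG1082920 rose from 4.11 ± 0.468 to 18.3 ± 1.28 FPKM (log2 fold change 1.92, SE 0.12, limma adjusted p = 3.04e-05). Geranylgeranyl reductase, which draws on the same pool for chlorophyll and tocopherol tails, summed to 12.8 ± 1.52 and 41.6 ± 1.12 FPKM, and its 4 tested genes rose. AVESA.00010b.r2.6CG1091760, at 1.26 ± 0.130 and 14.3 ± 1.12 FPKM, was the lowest of the 4 in unshaded and the highest in ear-shaded grains.

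**Figure D5:**
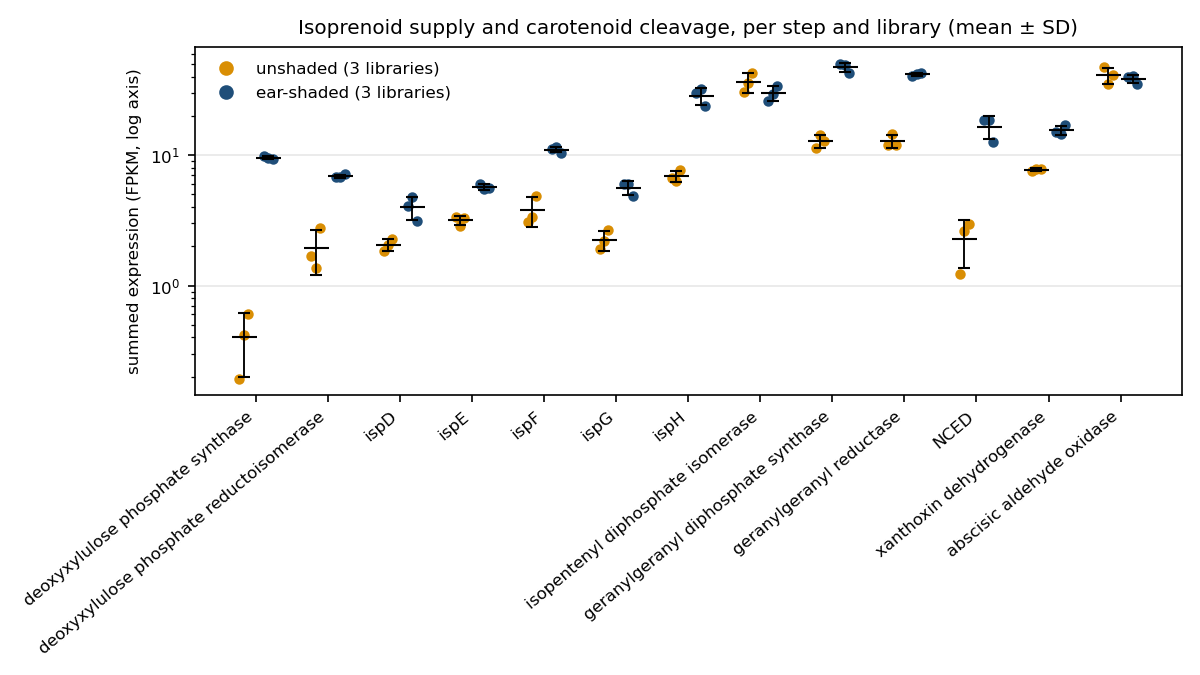
Summed expression per library of the steps that supply the carotenoid pathway and of steps that use it (FPKM, log axis). Points are libraries, and bars show the mean ± SD of 3 libraries. Deoxyxylulose phosphate synthase and NCED show the widest gaps between groups, at 23.6-fold and 7.29-fold, and isopentenyl diphosphate isomerase and abscisic aldehyde oxidase overlap.

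Downstream, genes that cleave carotenoids towards abscisic acid were mostly low. Of 59 genes with text for abscisic acid or strigolactone precursors 18 were tested, 8 higher and 3 lower, which is near the 42.4% and 21.5% of all tested genes. Their median log2 fold change of 0.26 equalled that of all tested genes to 2 decimals, and 7 of the 18 were admitted only through the ear-shaded libraries. The 9-cis-epoxycarotenoid dioxygenases (NCED), which cut violaxanthin or neoxanthin to the abscisic acid precursor, summed to 1.23, 2.60 and 2.98 FPKM in unshaded and to 18.5, 18.4 and 12.7 FPKM in ear-shaded libraries, 7.29-fold higher. Their 4 tested genes rose, all of them admitted only through the ear-shaded libraries. AVESA.00010b.r2.7CG0693440 was at 0.473, 0.833 and 1.36 FPKM and at 7.77, 7.51 and 5.33 FPKM (log2 fold change 2.07, SE 0.20, limma adjusted p = 0.000117).

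In sum the next enzymes changed less, at 2.01-fold for xanthoxin dehydrogenase and 0.938-fold for genes with abscisic aldehyde oxidase text. Xanthoxin dehydrogenase had 2 of 3 tested genes higher, and AVESA.00010b.r2.4AG0614470 rose from 4.71 ± 0.209 to 9.29 ± 0.759 FPKM. Genes with abscisic aldehyde oxidase text, which in some also names an indole-3-acetaldehyde oxidase, had 2 of 11 tested higher and 3 lower. Their most abundant, AVESA.00010b.r2.7CG0706690, fell from 8.71 ± 0.190 to 5.33 ± 1.02 FPKM. The genes of strigolactone precursors, DWARF27, CCD7 and CCD8, were all under the filter, with AVESA.00010b.r2.4AG0575290 at 0.512 ± 0.425 and 0.977 ± 0.439 FPKM, AVESA.00010b.r2.2AG0232990 at or under 0.0891 FPKM and AVESA.00010b.r2.1DG0146770 at 1.03 ± 0.646 and 0.280 ± 0.119 FPKM. No gene carried the KEGG number searched for neoxanthin synthase.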

How the data were processed

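Values came from 6 libraries of peeled grains, 3 ear-shaded and 3 unshaded, as the treatment label assigns them. Per the labels' protocols, fragmented mRNA was copied with random primers and made into libraries with an Illumina kit, and a PacBio instrument is also named. The submitters' processing notes list HISAT2 and StringTie, with no version. Genome build, annotation and strand setting: not given in the sources used here. The authors deposited FPKM per gene, gene length, a log2 fold change, a p-value and an adjusted p-value. The authors' deposited p-values are quoted only where named. Because FPKM values are not read counts, count models were not applied. A search for whole reads found at most 13.3% to 14.2% of low values within 0.05 of a whole number, so the depth is unknown and no counting interval is given.

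limma 3.58.1 (R 4.3.3, mean-variance trend, two-sided) was run on log2(FPKM + 1) for the 58283 genes whose mean over the 6 libraries reached 1 FPKM. The threshold was 0.05 after Benjamini-Hochberg adjustment across them. Folds are ratios of mean FPKM. The pseudocount understates changes of low genes. Sums over genes were not tested. Close copies in a hexaploid may share reads, so single copies are less certain than sums. The model was also run on simulated data with independent normal noise and few changed genes. In the real data most tested genes passed, so that run cannot check the scaling between libraries. The members and lists were chosen with earlier results of these data known. Genes were named per enzyme as the 3 of highest mean and up to 2 called genes that changed most and averaged 2 FPKM or more, and per related enzyme the most abundant. The other carotenoid genes are given to account for each. Alternatives covered the pseudocount, the filter, 3 scalings, the trend, weighting of libraries, a block for replicate number, averaged ear-shaded replicates 1 and 2, the loss of each library and the rule for members.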

Additional observations from a re-analysis of the deposited data

How the results depend on the processing

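Of 27 named and tested carotenoid genes, 11 kept their direction and their side of the threshold in every alternative that tested them. Without the filter 56196 genes passed, 38730 of them higher, and 34 carotenoid genes were higher. With a mean of at least 5 FPKM, 12567 genes passed (7292 higher and 5275 lower), 4 carotenoid genes (1 higher and 3 lower) and 13 related genes (10 higher and 3 lower), since fewer genes were tested. Median-of-ratios scaling gave 16333 higher genes, 12 higher and 8 lower carotenoid genes and 8 lower related genes, and quantile normalization gave 14 higher carotenoid genes. The count of 5 lower carotenoid genes was 3 with equal library sums, with ear-shaded replicates 1 and 2 averaged and with the replicate block, and it was 2 for genes with a single KEGG number and, in an alternative chosen after seeing the data, without the 4 genes of joint EIF3H text. Leaving out each library gave 2 to 5 lower carotenoid genes, 2 without ear-shaded replicate 1. The replicate numbers did not pair the libraries (correlations of same-numbered deviations of -0.05, -0.05 and -0.15), and with the number as a block 23 carotenoid genes passed in place of 27.

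Signs turned for genes that had not passed. AVESA.00010b.r2.2AG0205290 was at -0.13, AVESA.00010b.r2.4CG1278980 at -0.088 and AVESA.00010b.r2.6DG1151690 at -0.081 (log2 fold change) with median-of-ratios scaling, the last at -0.0396 with quantile normalization. AVESA.00010b.r2.2CG0282510 was at -0.27 and -0.16 with these scalings and between -0.0149 and 0.15 with a library left out. AVESA.00010b.r2.UnG1402570 was at -0.12 with both scalings. AVESA.00010b.r2.2DG0351510 was at 0.0245 and AVESA.00010b.r2.1DG0124870 at 0.0145 with equal library sums. Folds of sums passed below 1 for zeta-carotene desaturase (0.997) and all 57 genes (0.862) with median-of-ratios scaling, for all 57 genes with quantile normalization (0.997), and for beta-carotene 3-hydroxylase with both scalings (0.797 each) and between 0.986 and 1.10 with a library left out. The cause was not tested. Unknown depth limits the lowest values most, where a few fragments may decide a listed 0.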

Other observations

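Genes outside the KEGG rule carried matching COG text. Of 23 such genes with lycopene cyclase, prolycopene isomerase, zeaxanthin epoxidase or violaxanthin text and no KEGG text, 2 reached the filter, both only through the ear-shaded libraries, so that a higher value there was fixed by the filter. AVESA.00010b.r2.4CG1276000, with lycopene cyclase and FAD binding text, was at 0.0599, 0.102 and 0.0534 FPKM in the unshaded and at 2.50, 2.34 and 1.63 FPKM in the ear-shaded libraries, 30.1-fold higher (log2 fold change 1.55, SE 0.14, limma adjusted p = 8.5e-05). That places it near the annotated beta-cyclase gene in shaded grains, which was at 2.57, 2.88 and 2.38 FPKM. AVESA.00010b.r2.4AG0618880, with prolycopene isomerase text, was at 0.779 ± 0.0443 and 1.57 ± 0.361 FPKM (limma adjusted p = 0.0108). These genes were looked at after the rule had been applied. With the 2 tested ones the count of called carotenoid genes was 29 in place of 27. The filter fixed their direction but not that they passed, so this count is a description too.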
